A study of Mus musculus with 10 samples.

Results

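Enteropeptidase and 8 other genes for peptidases were followed in mouse jejunum (its proximal stretch, just past the duodenum). They were taken by gene symbol (Tmprss15, Anpep, Dpp4, Enpep, Mep1a, Mep1b, Ace, Xpnpep2 and Cndp1) and are 9 of the 24368 genes in the table. The set was chosen by their normalised reads in these same 10 libraries, with the difference between the genotypes already seen, so that difference is given as a description, without a test. The study set mice with a conditional knockout of HuR in the intestinal epithelium (labelled HuR cKO, here cKO) against littermates labelled WT, with 5 libraries of each, 1 library per mouse, to ask what HuR does in fat uptake. HuR is an RNA-binding protein encoded by Elavl1. The sources used here name neither the Cre line nor the deleted exons, and give no age, sex or diet.

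Dietary protein is cut in steps. Enteropeptidase, the serine protease encoded by Tmprss15, sits in the brush border of the upper small intestine and turns pancreatic trypsinogen into trypsin, which then activates the other pancreatic proenzymes. The peptides that result are shortened at the enterocyte surface by membrane-bound aminopeptidases, dipeptidyl peptidases, carboxypeptidases and endopeptidases, and the products enter the cell as free amino acids, dipeptides and tripeptides. Most of these enzymes are anchored in the microvillus membrane of mature enterocytes, and several of them also cut peptide hormones.

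Total reads per library ranged from 16063987 (cKO 1) to 18927440 (cKO 5), and values are these reads per gene divided by 1 size factor per library, called normalised reads here. Elavl1 itself had 556 to 725 normalised reads in cKO and 630.5 to 709 in WT (limma adjusted p = 0.798). With the deleted exons unstated, that gene-wide value is no check of the deletion, and every direction here follows the labels. Enterocyte markers such as Vil1, Fabp2 and Krt20 were abundant in every library, the duodenal factor Pdx1 had at most 19.0 normalised reads and the ileal gene Fabp6 at most 3.81. Other genes listed as proximal or distal were present, with Onecut2 (proximal) at up to 728 and Slc10a2 (distal) at up to 242 normalised reads. Reads of 4 Y-linked genes came to at least 1372 normalised reads in every library and Xist to at most 2.40, as in males. The libraries cKO 3 and cKO 5 stood apart in the clock gene Per2 (12.7 and 16.03 normalised reads, where the other 8 libraries had 342 to 749), so results are also given without this pair. All 9 members passed the filter of a mean of 10 normalised reads.

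The sequences just upstream of 4 members are shown because these members represent the main patterns in the data: Tmprss15 and Mep1a, whose cKO values were all below the WT values, and Dpp4 and Enpep, which were highest by far in 1 cKO library. Each is the 250 bases before the RefSeq start site (GRCm38.p6, minus strand, 5′ to 3′), at chr16:79091098-79091347 for Tmprss15, chr17:43502774-43503023 for Mep1a, chr2:62412232-62412481 for Dpp4 and chr3:129332750-129332999 for Enpep. Capitals mark matches, on either strand, to 5 short motifs. The motif searched for HNF1 factors was one arm of their palindromic site, GTTAAT. For the CDX factors it was TTTATG. The GATA factors were given AGATAA as their motif. For HNF4 the motif was CAAAGTCCA. The TATA box was searched as TATAAA.
Tmprss15: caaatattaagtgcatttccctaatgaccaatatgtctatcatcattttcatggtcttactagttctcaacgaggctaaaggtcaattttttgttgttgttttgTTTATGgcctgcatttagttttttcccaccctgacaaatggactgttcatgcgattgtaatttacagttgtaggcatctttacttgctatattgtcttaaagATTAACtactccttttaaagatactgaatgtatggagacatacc
Mep1a: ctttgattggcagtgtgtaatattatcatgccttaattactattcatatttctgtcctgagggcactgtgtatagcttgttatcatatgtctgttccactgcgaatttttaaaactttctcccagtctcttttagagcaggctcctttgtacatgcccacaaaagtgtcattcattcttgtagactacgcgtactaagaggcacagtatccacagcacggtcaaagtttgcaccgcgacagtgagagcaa
Dpp4: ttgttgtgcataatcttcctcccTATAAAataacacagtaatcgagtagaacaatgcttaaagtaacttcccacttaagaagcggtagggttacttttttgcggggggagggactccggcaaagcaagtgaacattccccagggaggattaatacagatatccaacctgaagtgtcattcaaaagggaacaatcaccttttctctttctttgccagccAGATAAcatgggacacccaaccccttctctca
Enpep: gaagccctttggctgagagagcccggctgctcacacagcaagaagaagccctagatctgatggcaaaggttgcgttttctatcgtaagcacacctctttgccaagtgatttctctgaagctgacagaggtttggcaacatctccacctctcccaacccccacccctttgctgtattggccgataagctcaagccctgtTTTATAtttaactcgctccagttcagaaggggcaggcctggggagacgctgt

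In the Tmprss15 window TTTATG began 146 bases before the start site, and a match to GTTAAT on the other strand, read here as ATTAAC, began 44 bases before it. GTTAAT was found in 6.43% and TTTATG in 10.8% of 32851 windows of the same length in all promoters listed. The Mep1a window held none of the 5 motifs. Dpp4 held TATAAA 227 bases and AGATAA 32 bases before its start, and Enpep held the reverse of TATAAA 52 bases before it. Over all promoters, TATAAA stood in 12.4%, AGATAA in 9.99% and CAAAGTCCA in 0.384% of windows. Of the 8 windows of 7 members that were searched, 1 held GTTAAT, 1 TTTATG, 1 AGATAA, 3 TATAAA and none CAAAGTCCA. G and C made up 34% of the Tmprss15 window and 72.8% of that of Anpep, beside a median of 52.4% over all promoters.

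**Figure D1:**
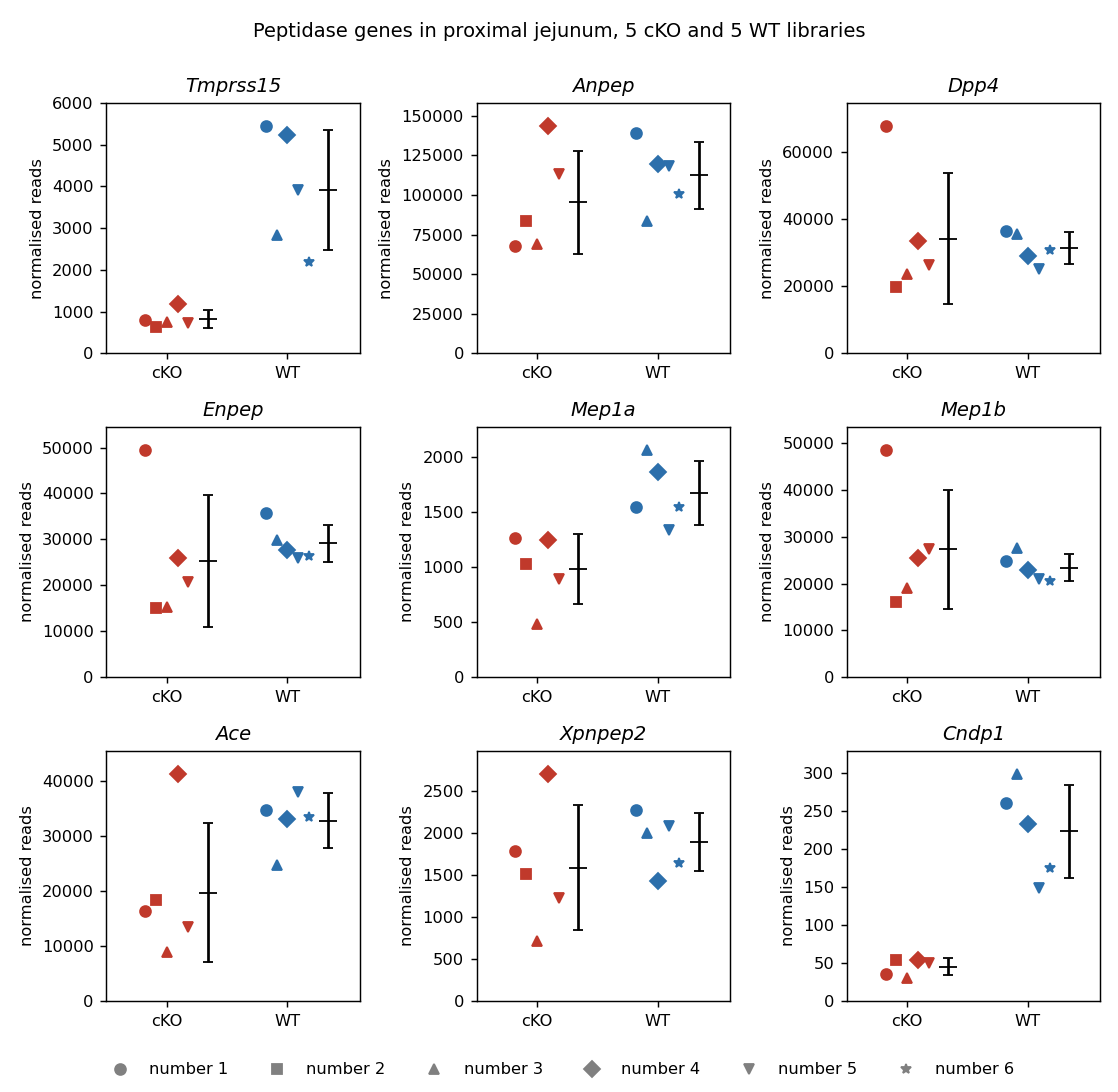
Normalised reads (vertical axes, from 0) of the 9 peptidase genes in each cKO (red, left) and WT (blue, right) library, with the symbol giving the library number and the black bars the mean and SD of 5 libraries. All 5 cKO points lie below all 5 WT points for Tmprss15, Mep1a and Cndp1, and the circle of cKO 1 lies far above the rest for Dpp4, Enpep and Mep1b.

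Enteropeptidase was 4.64-fold lower in cKO than in WT by the fitted difference. Tmprss15 (ENSMUSG00000022857, chromosome 16, 78953008 to 79091097 in mm10, minus strand, 28 exons in its longest transcript) had 797, 634, 739.5, 1189 and 717 normalised reads in cKO 1 to 5, against 5457, 2827, 5236, 3906 and 2184 in WT 1, 3, 4, 5 and 6. The highest cKO library, cKO 4, was still well below the lowest WT library, WT 6, and the groups did not overlap. Means were 815 ± 217 normalised reads in cKO and 3922 ± 1441 in WT (SD, n = 5 each), and the fitted difference was -2.21 ± 0.25 (SE) on the log2(value + 1) scale. The spread was wider among the WT mice, where the standard deviation was 36.7% of the mean, than among the cKO mice, where it was 26.6%. Without cKO 3 and cKO 5 the difference was -2.13.

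Cndp1 (ENSMUSG00000056162, chromosome 18, 84610509 to 84650084, minus strand) encodes a dipeptidase of the M20 metallopeptidase family that can split carnosine. It had 35.6, 54.6, 30.9, 54.4 and 49.7 normalised reads in cKO 1 to 5, against 260, 299, 232, 149 and 175 in WT 1, 3, 4, 5 and 6. The groups did not overlap, and Cndp1 was the least abundant of the 9 genes in both. Means were 45.03 ± 11.04 in cKO and 223 ± 61.1 in WT (normalised reads, SD, n = 5 each), with a fitted log2 difference of -2.27 ± 0.24 (SE), or 4.83-fold lower. It was -2.17 without cKO 3 and cKO 5. An antisense gene overlaps an exon of Cndp1 in the GENCODE M21 annotation, and since the strand setting of the counting is not known here, reads of the 2 cannot be told apart.

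The meprins are astacin-type metalloendopeptidases that cut peptides and proteins in the middle of the chain. Mep1a encodes the alpha subunit and Mep1b the beta subunit, and the 2 can join through a disulfide bond. Mep1a (ENSMUSG00000023914, chromosome 17, 43474324 to 43502812, minus strand) had 1263, 1026, 484, 1249 and 895 normalised reads in cKO 1 to 5, against 1546, 2071, 1870.1, 1342 and 1553 in WT 1, 3, 4, 5 and 6. The groups did not overlap, though cKO 1 and cKO 4 came close to WT 5. Means were 983 ± 319 normalised reads in cKO and 1676 ± 290.3 in WT (SD, n = 5 each), with a fitted log2 difference of -0.83 ± 0.23 (SE) that was -0.50 without cKO 3 and cKO 5. Mep1b (ENSMUSG00000024313, chromosome 18, 21072344 to 21100199, plus strand) had 48607, 16025, 19048, 25487 and 27355 normalised reads in cKO 1 to 5, against 24751, 27617, 22831, 20965 and 20656 in WT 1, 3, 4, 5 and 6. Here the cKO libraries lay on both sides of the WT range, with 2 below it, 2 inside it and cKO 1 far above it. The fitted log2 difference of Mep1b was 0.12 ± 0.25 (SE), the only positive one of the 9, and it was -0.11 without cKO 1.

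Per kilobase of exon, Mep1a stood at 2.61% ± 1.11 of Mep1b in cKO and 4.75% ± 0.545 in WT (SD, n = 5 each). The cKO libraries 1, 3, 4 and 5 had 1.72%, 1.68%, 3.25% and 2.17%, below the lowest WT library at 4.14%, and cKO 2, at 4.24%, lay within the WT range. A ratio within a library does not depend on the size factor.

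The aminopeptidases take single residues from the start of a peptide. Anpep (ENSMUSG00000039062, chromosome 7, 79821803 to 79861059, minus strand) encodes aminopeptidase N, which prefers neutral residues and is one of the most abundant brush border proteins. It had 67774, 83474, 69363, 143856 and 113069.5 normalised reads in cKO 1 to 5, against 139085, 83521, 119929.5, 118324 and 100966 in WT 1, 3, 4, 5 and 6. The groups overlapped, with 3 cKO libraries below the lowest WT library, 1 within the WT range and cKO 4 above it. The fitted log2 difference of Anpep was -0.28 ± 0.24 (SE).

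Enpep (ENSMUSG00000028024, chromosome 3, 129269175 to 129332720, minus strand) encodes aminopeptidase A, which removes acidic residues and also trims angiotensin. It had 49555, 14983, 15204, 25931 and 20684 normalised reads in cKO 1 to 5, against 35752, 29951, 27626, 25976 and 26398 in WT 1, 3, 4, 5 and 6. No cKO library was within the WT range, since 4 lay below it and cKO 1 above it. Its fitted log2 difference was -0.35 ± 0.28 (SE) with all libraries and -0.63 without cKO 1. Xpnpep2 (ENSMUSG00000037005, chromosome X, 48108725 to 48136981, plus strand) encodes the membrane-bound aminopeptidase P, which cuts before proline. It had 1783, 1511, 712, 2707 and 1224 normalised reads in cKO 1 to 5, against 2279, 2005, 1429.6, 2087 and 1648 in WT 1, 3, 4, 5 and 6. The cKO libraries spread to both sides of the WT range, from cKO 3 at the bottom to cKO 4 at the top. The fitted log2 difference of Xpnpep2 was -0.36 ± 0.28 (SE), and it turned to 0.058 without cKO 3 and cKO 5.

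Dpp4 and Ace encode enzymes that release 2 residues at a time, from the start and from the end of a peptide. Dipeptidyl peptidase 4 cuts after proline or alanine and inactivates the incretin hormones, while angiotensin-converting enzyme also makes angiotensin II. Dpp4 (ENSMUSG00000035000, chromosome 2, 62330073 to 62412231, minus strand) had 67776, 19862, 23519, 33333 and 26246 normalised reads in cKO 1 to 5, against 36527, 35618, 28939, 25016 and 30782 in WT 1, 3, 4, 5 and 6. With cKO 1 far above all other libraries the mean was higher in cKO, at 34147 ± 19436 against 31377 ± 4777 in WT (normalised reads, SD, n = 5 each), while the fitted log2 difference was -0.01 ± 0.28 (SE). It was -0.30 without cKO 1 and 0.14 without cKO 2, so Dpp4 had no stable direction.

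Ace (ENSMUSG00000020681, chromosome 11, 105967945 to 105989964, plus strand) had 16478, 18395, 9009.8, 41417 and 13509.5 normalised reads in cKO 1 to 5, against 34875, 24705, 33108, 38061 and 33534 in WT 1, 3, 4, 5 and 6. The libraries cKO 1, 2, 3 and 5 lay below the whole WT range and cKO 4 lay above it. The fitted log2 difference of Ace was -0.91 ± 0.31 (SE), -1.23 without cKO 4 and -0.48 without cKO 3 and cKO 5. RefSeq lists 2 start sites for Ace, of which the one inside the gene serves the testis form, and a count per gene adds their transcripts. An antisense gene overlaps an exon of Ace, and another overlaps an exon of Dpp4, where its own count averaged 3.06 normalised reads.

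**Figure D2:**
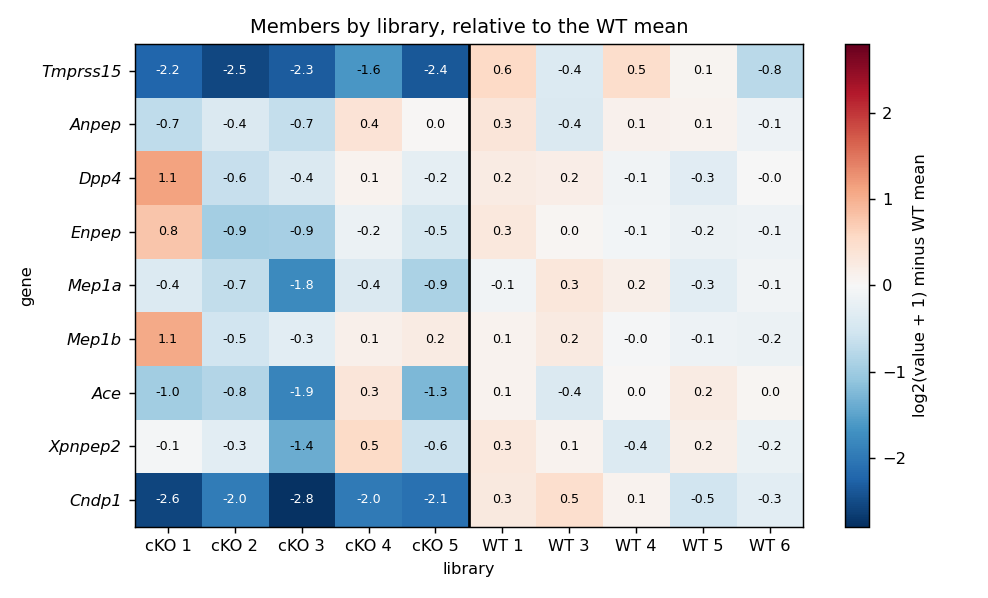
Each cell gives the log2(value + 1) of a peptidase gene (rows) in a library (columns, cKO left of the line and WT right of it) minus the mean of the 5 WT libraries, with blue lower and red higher. Tmprss15 and Cndp1 are blue in all 5 cKO columns, cKO 1 is red for Dpp4, Enpep and Mep1b, and cKO 3 is blue in every row.

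Read by library rather than by gene, the cKO mice differed among themselves more than the WT mice did in most of these genes. Whether this was particular to them was not tested, since the share of all genes with a wider spread in cKO was not counted. Over all genes, members included, the chi-square per degree of freedom was 37.6 to 174 between pairs of cKO libraries and 19.8 to 75.8 between pairs of WT libraries. That measure is taken on reads and leans on abundant genes. The standard deviation as a share of the mean was larger in cKO for 7 of the 9 genes, the exceptions being Tmprss15 and Cndp1, and it reached 63.8% for Ace, 56.9% for Dpp4 and 56.6% for Enpep in cKO against 15.1%, 15.2% and 13.7% in WT. The median over the 9 genes of the log2 deviation from the WT mean was -0.39, -0.69, -1.39, 0.10 and -0.61 in cKO 1 to 5, against 0.27, 0.11, 0.03, -0.15 and -0.13 in WT 1, 3, 4, 5 and 6. All 9 genes were below the WT mean in cKO 2 and cKO 3, 7 in cKO 5, 6 in cKO 1 and 4 in cKO 4. The library cKO 4 was the highest cKO library for Tmprss15, Anpep, Ace and Xpnpep2. Mitochondrial genes took 9.48% of the reads of cKO 1, against 2.69% to 6.09% in the other 9 libraries, and the part of this in the high values of cKO 1 was not tested.

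The trio high in cKO 1 stood at 2.16 times (Dpp4), 2.08 times (Mep1b) and 1.7 times (Enpep) the WT mean there, while Anpep, Ace and Mep1a in the same library stood at 0.60, 0.50 and 0.75 of it. Sis, which encodes sucrase-isomaltase, had 278981 normalised reads in cKO 1, against 68149 to 103510 in the other cKO libraries and 65766 to 137610 in WT. Mme, which encodes the surface endopeptidase neprilysin, had 87464 normalised reads in cKO 1, against 27973 to 44616 in the other cKO libraries and 40896 to 74538 in WT. Both were looked at for cKO 1 after their values were seen.

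The shares of all genes tested put these counts beside their background. In all, 186 of 14062 genes (1.32%) had a limma adjusted p under 0.05, 62 higher and 124 lower in cKO, and the split was 86 higher and 74 lower with library totals in edgeR. Leaving out 1 library moved the total to between 30 (without WT 4) and 611 (without cKO 4). Of the 9 members, 2 were past that threshold, Tmprss15 and Cndp1, and both were lower in cKO, as were 0.882% of all genes, while 0.441% were higher. Mep1a also had groups that did not overlap, which makes 3 of 9 members, all lower in cKO. Over all genes the groups did not overlap for 4.87%, with 3.01% lower and 1.86% higher in cKO. Without cKO 4, Mep1a and Ace passed as well, which makes 4. Since the members were chosen with this contrast known, nothing is read from these counts. The fitted difference was below 0 for 8 of the 9 members, against 49.0% of all genes, with a median of -0.36 against 0.01 over all genes. Without cKO 3 and cKO 5 it was below 0 for 6 of 9, with a median of -0.25.

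**Figure D3:**
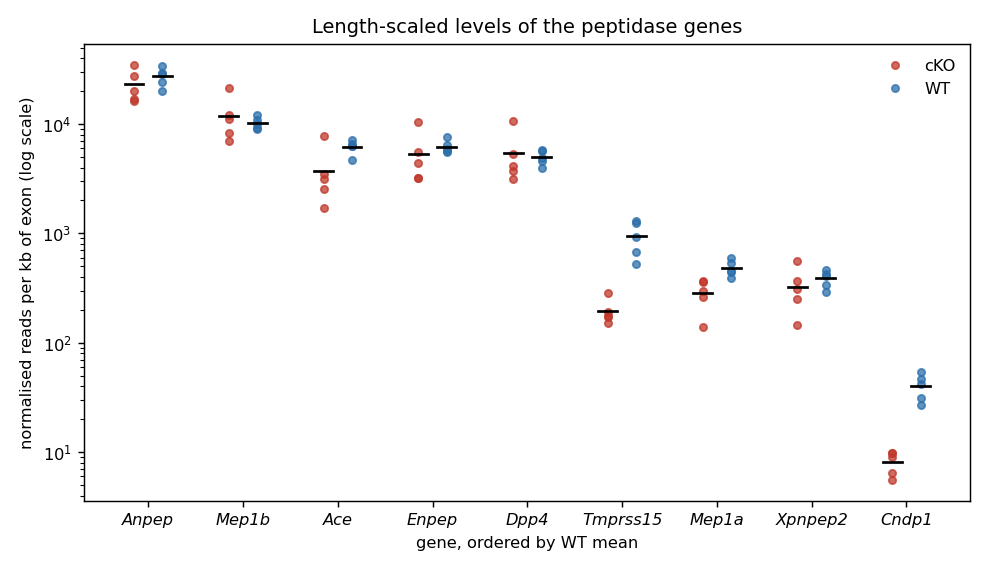
Normalised reads per kilobase of exon (log axis) of the 9 peptidase genes, ordered by their WT mean, with 1 point per library for cKO (red, left) and WT (blue, right) and black lines at the means. In WT, Anpep leads at 27174, the next 4 genes lie between 4965 and 10221, and Cndp1 is lowest at 40.1.

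Scaled per kilobase of exon, the 9 genes spanned a wide range in WT jejunum. Anpep was highest, at 23097 ± 7877 normalised reads per kilobase in cKO and 27174 ± 5085 in WT (SD, n = 5 each), and stood in place 38 of all 14062 genes tested in WT. Mep1b followed at 11944 ± 5587 in cKO and 10221 ± 1264 in WT. Ace had 3738 ± 2386 per kilobase in cKO and 6215 ± 937 in WT. Enpep had 5370.002 ± 3039 in cKO and 6192 ± 851 in WT, and Dpp4 5404 ± 3076 in cKO and 4965 ± 756 in WT. The ranges of Ace and Enpep overlapped in WT, so the order of these genes there is not settled by these libraries. Those of Enpep and Dpp4 overlapped as well, but within each WT library Enpep stood above Dpp4, at 113% to 139% of it.

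Below a clear gap, Tmprss15 had 195 ± 51.8 normalised reads per kilobase in cKO and 938 ± 345 in WT (SD, n = 5 each). Mep1a had 285 ± 92.4 in cKO and 486 ± 84.1 in WT, and Xpnpep2 325 ± 152 in cKO and 387 ± 70.5 in WT. The WT ranges of Tmprss15 and Mep1a overlapped, though within each WT library Tmprss15 stood above Mep1a. Those of Mep1a and Xpnpep2 overlapped too. Cndp1 was far below all of them, at 8.11 ± 1.99 in cKO and 40.1 ± 11.01 in WT. By means, Tmprss15 was sixth in WT and eighth in cKO, where Mep1a and Xpnpep2 stood above it.

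Other enzymes of protein digestion were read from lists that did not hold the members. For each list, here and below, the count at an unadjusted p under 0.05 is given. The share of all genes under that value was not counted, so nothing is read from these counts. For scale, the brush border hydrolase gene Mgam had a limma p of 0.0496 unadjusted and 0.268 adjusted. Of 11 other surface peptidases tested, none passed the limma test (adjusted p), with 3 at an unadjusted p under 0.05, and edgeR called 0 and DESeq2 1. Their fitted differences were below 0 for 9 of 11, with a median of -0.35 against 0.01 over all genes. Without cKO 3 and cKO 5 the median was -0.18. Ggt1, the gamma-glutamyltransferase that splits glutathione outside the cell, had 13349 ± 4819 normalised reads in cKO and 21342 ± 1660.5 in WT (SD, n = 5 each; log2 difference -0.75, limma adjusted p = 0.104), and its difference was -0.44 without that pair. Ggt6, a related gene, gave a log2 difference of -0.72 (limma adjusted p = 0.0957), with no overlap between groups.

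Among 10 epithelial serine proteases and their inhibitors none passed limma, with 5 at an unadjusted p under 0.05, and edgeR called 0 and DESeq2 3. Spint2, which encodes an inhibitor of the matriptase-type surface proteases, had 5087 ± 1891 normalised reads in cKO and 8872 ± 1025 in WT (SD, n = 5 each; log2 difference -0.87, limma adjusted p = 0.0680). Tmprss4, a membrane serine protease of the same class as enteropeptidase, gave a log2 difference of -0.58 (limma adjusted p = 0.0869), and its values of 535 to 927 normalised reads in cKO and 1029 to 1178 in WT did not overlap. The median of this list was -0.37.

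Some intracellular peptidases finish the work on absorbed dipeptides and tripeptides. Of the 25 genes listed as intracellular peptidases, none passed limma, with 7 at an unadjusted p under 0.05, and edgeR called 1 and DESeq2 2. Their median log2 difference was -0.20, and -0.09 without cKO 3 and cKO 5. Blmh, which encodes bleomycin hydrolase, a cysteine aminopeptidase, was the one whose cKO values all exceeded the WT values, at 485 to 637 normalised reads in cKO and 362 to 397 in WT (log2 difference 0.59, limma adjusted p = 0.0563). Npepl1, a leucine aminopeptidase-like gene, gave -0.59 (limma adjusted p = 0.0953). Pancreatic proteases, the substrates and partners of enteropeptidase, were all but absent: 11 of 16 had a row, and Prss2 averaged 0.372 normalised reads in cKO and 0.830 in WT. Cela1, an elastase that is also made in the gut wall, was the 1 tested, with a log2 difference of -0.06 (limma adjusted p = 0.915). The pancreatic list thus had 0 genes at an unadjusted p under 0.05.

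Of 10 other brush border hydrolases, 1 fell and none rose in limma, with 7 at an unadjusted p under 0.05, and edgeR called 0 and DESeq2 1. The list median was -0.55, and -0.32 without cKO 3 and cKO 5. Nt5e, which encodes the surface 5'-nucleotidase CD73 and is named here after its values were seen, had 1047 to 9462 normalised reads in cKO and 11777 to 19508 in WT, with no overlap (log2 difference -1.82, limma adjusted p = 0.120), and its difference was -0.92 without that pair. The gene that fell was Akp3, which encodes the duodenal type of intestinal alkaline phosphatase in the mouse. Akp3 had 15.3, 26.4, 3.17, 70.4 and 11.2 normalised reads in cKO 1 to 5, against 231, 59.7, 269, 272 and 173 in WT 1, 3, 4, 5 and 6 (log2 difference -3.35 ± 0.69 SE, limma adjusted p = 0.0465). The highest cKO library, cKO 4, lay above WT 3. The call was lost in 14 of 22 alternatives, among them those without cKO 3 and cKO 5 (adjusted p = 0.129). It was also lost without WT 1, 4, 5 or 6 and without cKO 1, 2, 3 or 5, where the adjusted p reached 0.106 (without WT 4). Related phosphatase genes could share reads with Akp3, which makes its level uncertain.

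**Figure D4:**
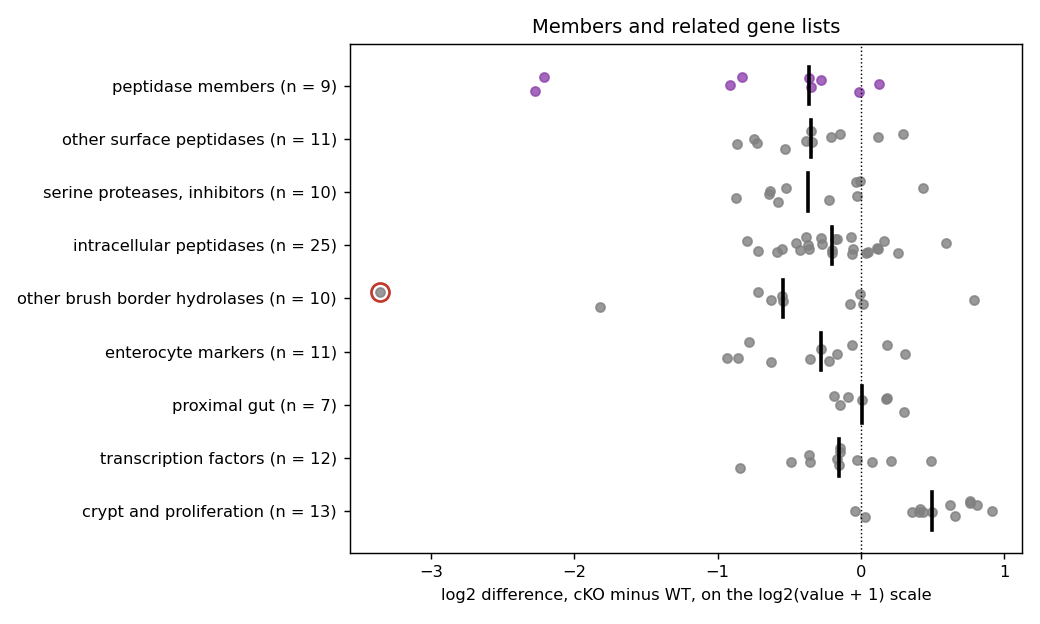
Fitted log2 difference, cKO minus WT, of each tested gene (points) in the peptidase set (purple) and in related lists (grey), with the list median as a black bar and genes past a limma adjusted p of 0.05 outside the peptidase set ringed in red. With all libraries the median was -0.36 for the members and -0.35 for other surface peptidases (-0.25 and -0.18 without cKO 3 and cKO 5), and Akp3 is the ringed point.

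Markers of cell types were read beside these genes. Of 11 enterocyte markers none passed limma (4 at an unadjusted p under 0.05, edgeR 0 and DESeq2 2), and 9 had fitted differences below 0, with a median of -0.28 that was -0.12 without cKO 3 and cKO 5. Their summed level ran from 775738 to 1464434 normalised reads in cKO and from 1212437 to 1397432 in WT. Slc5a1, the sodium-glucose transporter, gave a log2 difference of -0.94 (limma adjusted p = 0.0897) and Apoa4, an apolipoprotein of chylomicrons, one of -0.86 (limma adjusted p = 0.0774), and neither gene's groups overlapped. Without cKO 3 and cKO 5 the difference of Slc5a1 was -0.52. In crypt and proliferation genes, 12 of 13 fitted differences were above 0 (median 0.49, and 0.38 without cKO 3 and cKO 5). None passed limma (4 at an unadjusted p under 0.05, edgeR 0 and DESeq2 1). The list summed to 7787, 2634, 6137, 3130 and 4900 normalised reads in cKO 1 to 5, against 2762 to 3694 in WT. In a bulk sample fewer cells of a type and less RNA per cell cannot be told apart, and the part of these shifts in the peptidase values was not tested.

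Position along the gut bears on Tmprss15, since enteropeptidase is made mostly in the duodenum. Of 7 genes of the proximal gut tested none passed limma (0 at an unadjusted p under 0.05, edgeR 0 and DESeq2 0), and their median log2 difference was 0.01. Their sum was 8509 to 16624 normalised reads in cKO and 11143 to 14647 in WT. Most of it was Heph, with means of 9236 in cKO and 9447 in WT. Akp3, named above as the duodenal phosphatase and not in this list, gave a log2 difference of -3.35, a call lost in 14 of 22 alternatives. Slc40a1 (ferroportin, which exports iron from enterocytes) gave a log2 difference of 0.30 (limma adjusted p = 0.507). The stomach and Brunner gland gene Tff2 was at 0 in all cKO libraries and averaged 0.399 in WT. Among 4 distal genes, 2 were at an unadjusted p under 0.05. Slc51b, a bile acid exporter subunit, rose by 0.79 on the log2 scale (limma adjusted p = 0.0421). That call was lost in 13 of 22 alternatives, among them those without any 1 WT library and without cKO 1, 3 or 5, with an adjusted p of up to 0.151. Fabp6 averaged 1.77 normalised reads in cKO and 0 in WT. The part of position along the gut in the Tmprss15 values was not tested.

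Other cell types were present in both groups. Of 9 fibroblast genes the collagen genes Col3a1 (log2 difference 0.75, limma adjusted p = 0.0357) and Col1a1 (1.02, limma adjusted p = 0.0426) rose and none fell. In that list 4 genes were at an unadjusted p under 0.05, and edgeR called 2 and DESeq2 4. Fitted differences were above 0 for 8 of the 9, with a median of 0.38. The exception was Fbln1, an extracellular matrix gene named here after its values were seen, with 1268 to 2232 normalised reads in cKO and 2388 to 2995 in WT (log2 difference -0.74, limma adjusted p = 0.0639). The summed list was 9101 to 12085 normalised reads in cKO and 8224 to 9712 in WT. Both collagen calls were lost without WT 1, 3, 4 or 5, without cKO 3, and without cKO 3 and cKO 5 (adjusted p of 0.110 for Col3a1 and 0.193 for Col1a1), and that of Col1a1 also without cKO 5. Of 8 endothelial genes Lyve1, a lymphatic receptor, rose by 1.63 on the log2 scale (limma adjusted p = 0.00272), and 3 were at an unadjusted p under 0.05. The list summed to 983 to 1745 normalised reads in cKO and 479.7 to 676 in WT. Much of that sum was Lyve1 itself, at 513 to 1045 in cKO and 194 to 385 in WT. The endothelial list had 7 fitted differences above 0 and 1 below, with a median of 0.62 that was 0.09 without cKO 3 and cKO 5. No gene passed among 8 of smooth muscle, 11 of immune cells or 3 tested of neurons and glia, in limma, edgeR or DESeq2. The sums were 24524 to 59496 in cKO and 28345 to 47149 in WT for smooth muscle, and 11683 to 44071 in cKO and 16828 to 30509 in WT for immune cells. At an unadjusted p under 0.05 there were 1 smooth muscle gene, 0 immune genes and 1 neuronal gene. The part of these cell types in the peptidase values was not tested.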

How the data were processed

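Total RNA of proximal jejunum from 5 cKO and 5 WT mice was sequenced. Per the submitters' processing notes, CASAVA, HISAT2 2.0.5, featureCounts 1.5.0-p3, DESeq2 1.20.0 and mm10 were used. The strand setting, the annotation release and how multiply mapped reads were handled are unknown here. The values the authors deposited are a normalised signal: in each library 100% of them were whole multiples, within 0.001, of 1 step, which is what read counts over a size factor give. Another 2 per-sample columns carry names that belong to no labelled sample and were left out.

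Genes with a mean of at least 10 (14062 of 24368) were fitted as log2(value + 1) with limma 3.58.1 in R 4.3.3 (genotype only, intensity trend, robust moderation, two-sided, Benjamini-Hochberg over all genes tested, threshold 0.05). Fold changes on this scale understate the change of low genes. Whole reads were recovered for alternatives with edgeR 4.0.16 and DESeq2 1.42.0. Levels per kilobase used the exon length in the table. Steps were tested on simulated data. Libraries within a group differed well beyond counting noise (chi-square per degree of freedom of 19.8 or more). Which mice shared a litter is not known here.

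The members and lists were chosen with earlier results of these data known. Named were all members, from each list the genes past the threshold or otherwise up to 2 with the smallest p, and the 5 genes most like Tmprss15, Cndp1 or the median member profile. A few genes that this rule names are not reported here. Promoters are from RefSeq (GRCm38.p6) and exons from GENCODE M21, both the same build as mm10. Of 9 members, 7 were matched to a promoter that is used here. Other settings were further scalings, pseudocounts of 0.5 and 10, filters, moderation, leaving out libraries and a replicate block. Python 3.11.15 with matplotlib 3.10.9 drew the figures.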

Additional observations from a re-analysis of the deposited data

Results flagged for a closer look

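A sample far from the other 4 of its group was found in 5 of 70 groups of 5 examined, where chance flags about 1 in 20, and in 2 of the 18 member groups. Among the members these were Dpp4 in cKO 1, at 67776 normalised reads, and Ace in cKO 4, at 41417. Among the other named genes they were Cela1 in cKO 3 (205), Synm in cKO 3 (2386) and Col3a1 in WT 6 (1542).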

How the results depend on the processing

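Over 22 alternatives, Tmprss15 had log2 differences of -2.40 to -2.07 and Cndp1 of -2.42 to -2.06, and the median of the members ran from -0.63 (without cKO 1) to -0.20 (without cKO 3). Members past the threshold were 2 in 20 of these settings, 3 in DESeq2 and 4 without cKO 4. The members were chosen on these same libraries, so these ranges and counts describe the settings and are no test. The signs of Dpp4 (below 0 in 10 of 22), Mep1b (in 1) and Xpnpep2 (above 0 in 1) changed, and those of the other 6 members did not. The genes called came to 186, and to 750 in DESeq2, 42 without trend and robust moderation, 56 without cKO 3 and cKO 5, 24 at an adjusted p of 0.01 and 512 at 0.1. With 1 library left out they were 30 to 611: 190, 220, 65, 611 and 111 when cKO 1 to 5 were omitted in turn, then 91, 44, 30, 67 and 60 when WT 1, 3, 4, 5 and 6 were. Library totals and totals without mitochondrial and top genes put the median of all genes at 0.14 and 0.11. Of the other peptidases, inhibitors and hydrolases, 1 passed; 7 did in DESeq2, 2 with a mean of at least 50, 2 with totals without mitochondrial and top genes, 0 with no filter, 0 without trend, 0 without cKO 3 and cKO 5, and 0 to 8 with 1 library left out, 8 being without cKO 4. The numbers 1, 3, 4 and 5 occur in both groups, and deviations of libraries with the same number correlated at 0.12, 0.02, -0.11 and 0.10. No strong shared deviation was seen, but this cannot tell whether mice with the same number were littermates or were handled together. With the number as a replicate block over these 8 libraries, 134 genes and 2 of the other enzymes passed, against 89 and 0 with no block. Without length, 4 of the 9 genes kept their place in the order of WT levels, since normalised reads grow with length. Other causes were not tested.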

Other observations

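Transcription factors of intestinal identity were measured beside the promoter motifs. Of 12 tested none passed limma, with 3 at an unadjusted p under 0.05 and 0 calls in edgeR and DESeq2, and their median log2 difference was -0.15. Gata6 gave -0.49 (limma adjusted p = 0.261), and -0.23 without cKO 3 and cKO 5. Of 13 clock genes none passed limma (2 at an unadjusted p under 0.05, edgeR 0 and DESeq2 0), with a median of -0.81 that was -0.16 without cKO 3 and cKO 5. Per3 gave -1.69 (limma adjusted p = 0.258) and Cry2 -1.08 (limma adjusted p = 0.165), and these were -0.45 and -0.39 without the pair.

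Among 8573 genes with a mean of at least 100, those whose log2 values were most like Tmprss15 over the 10 libraries were Xpot, Cap1, Acvr1b, Papss2 and Cndp1, with likeness by Pearson coefficients of 0.93, 0.93, 0.93, 0.92 and 0.91. Most like Cndp1 were Sgms2 (0.97), Retreg3 (0.96), Dlst (0.96), Slc6a20a (0.95) and Cd81 (0.95). These values largely follow the difference between genotypes that the libraries share. With group means removed, the coefficient of Tmprss15 with Cndp1 was 0.21, and Hmbox1, Erc1, Pitrm1, Kdm5d and Map2k4 were nearest to Tmprss15 (0.91 to 0.81). Among the nearest to Cndp1 were Abat, Rai14, Ei24 and Ano6 (0.95 to 0.92). When the highest of 8573 coefficients over 10 libraries are picked, values this high can arise by chance, which was not tested. The genes most like the median member profile over the 10 libraries were Selenoi, Atp6ap1, Slc30a5, Tspan31 and Slc5a1 (0.98 to 0.96).

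The ratio of Enpep to Dpp4 per kilobase, picked after its values were seen, was 98.2%, 101%, 86.8%, 104% and 106% in cKO 1 to 5, against 131%, 113%, 128%, 139% and 115% in WT 1, 3, 4, 5 and 6. All cKO values lay below all WT values, also in cKO 1, where both genes were at their highest.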
